A study of Gloeophyllum trabeum and Trametes versicolor with 18 samples.

Results

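The response of the white-rot fungus *Trametes versicolor* to low-melanin fungal necromass was described across its genes, against growth on glucose. The comparison sets 3 libraries from low-melanin necromass against 3 from glucose, 6 of the 18 libraries of the series, chosen by their labels. All cultures were of strain A1-ATF and were sampled after 7 days in liquid Highley's medium, a defined mineral medium. Glucose was supplied at 1% (w/v) and low-melanin necromass at 0.45% (w/v), so the form and the concentration of the carbon source differed together and cannot be told apart. The 3 libraries of the same fungus on high-melanin necromass, also at 0.45%, are used for comparison and entered the same fit. Standard errors and p-values of single genes therefore also draw on the spread among the high-melanin libraries. The study also grew the brown-rot fungus *Gloeophyllum trabeum* on the same carbon sources, and its title speaks of similar routes of decay for necromass and litter. The fungus from which the necromass was made is not given in the sources used here. Nothing in the labels states that the replicates were independent cultures. P-values therefore reflect only the spread among the libraries used, part of which may be technical.

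Necromass is dead fungal biomass, whose cell walls are built mainly of chitin and glucans with proteins, and in melanised fungi also of melanin, a dark polymer that resists decay. White-rot fungi are known for secreted oxidative and hydrolytic enzymes that open wood, and polymers of this kind must be cut outside the cell before they are taken up. Glucose is taken up directly, and in many fungi it represses the genes for such enzymes.

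The tables list 15606 transcript models of *T. versicolor*, here called genes, of which 1625 had no count in any of the 6 libraries. After the removal of genes with low counts, 13340 were tested. The identifiers carry no gene name or function in the files or in the reference table, so genes could not be grouped by pathway and 4 are named by identifier, 2 in each direction. Total estimated counts ran from 20745703 to 26514709 on glucose, and from 18676346 to 22576334 on the necromass. Across genes, log2 CPM (counts scaled to a common library total) of libraries correlated at 0.975 to 0.99 within glucose, 0.992 to 0.993 within low-melanin necromass and 0.855 to 0.892 between the groups. In bulk RNA, fewer cells of a type and less RNA per cell cannot be told apart.

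Many genes differed between the carbon sources. At a Benjamini-Hochberg adjusted p under 0.05 in edgeR's quasi-likelihood test, 8380 genes differed (62.8% of those tested), with 4059 higher on low-melanin necromass (30.4%) and 4321 lower (32.4%). With the 6 libraries alone in the fit, 7874 genes (59.4%) were called. With the mean fragment length of each library as a covariate, 5517 genes (41.4%) were called, and fragment lengths did not overlap between the groups. Most of the differences called were under 2-fold. The median change of the called genes was 1.78-fold for those higher and 1.97-fold for those lower, and 2443 higher and 2210 lower genes changed by less than 2-fold. Changes of at least 2-fold were called in 1616 higher genes (12.1%) and 2111 lower genes (15.8%). At least 8-fold changes were found in 270 higher genes (2.02%) and 267 lower genes (2%), and at least 64-fold changes in 40 higher (0.3%) and 18 lower genes (0.135%). Fitted log2 fold changes ran from -8.28 to 9.93. The lowest belonged to a gene at 7.81, 334 and 728 CPM in glucose replicates 1, 2 and 3. The plot of fold change against level shows several of the strongest rises among abundant transcripts.

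**Figure D1:**
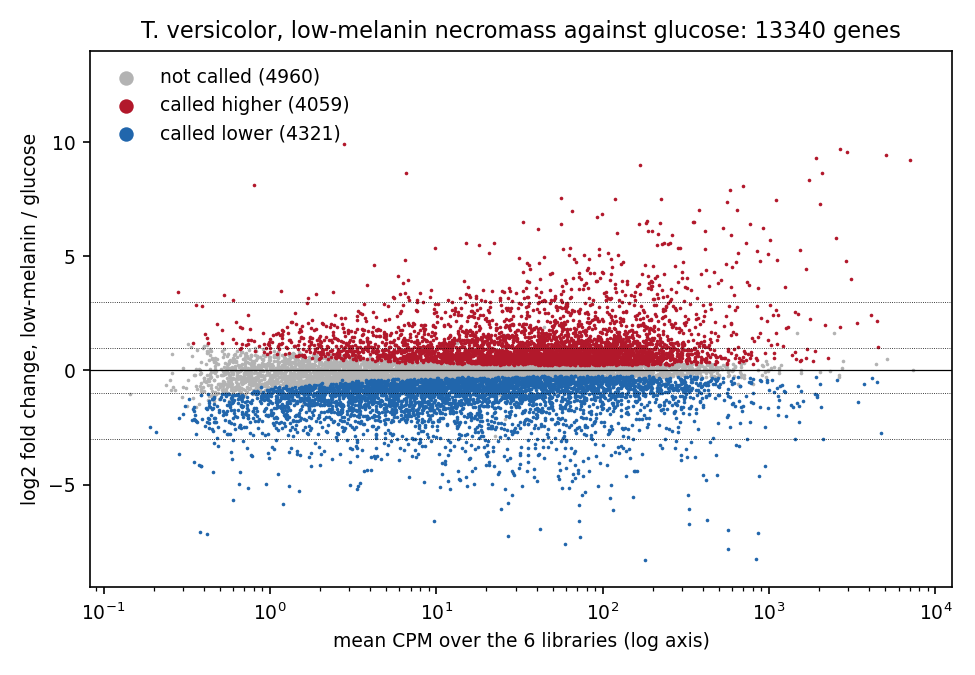
Log2 fold change between low-melanin necromass and glucose (y axis) against mean CPM over the 6 libraries (x axis, log scale), 1 point per gene. The 4059 genes called higher are red, the 4321 called lower blue and the 4960 not called grey, and dotted lines mark 2-fold and 8-fold changes.

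The split between higher and lower genes depended on how the libraries were scaled. With scaling by the trimmed mean of M-values (TMM), 48.4% of the called genes were higher. With upper-quartile scaling 32.6% were higher, and with library size alone 30.8%. The scalings put the median gene at a log2 fold change of -0.04, -0.28 and -0.32, in that order. The 270 and 267 genes changed at least 8-fold became 216 and 325 with upper-quartile scaling and 213 and 335 with library size alone. Directions given here are relative to the TMM scale.

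The libraries of the groups were well separated for most genes. In 9025 genes (67.7%) the CPM values of the 3 libraries of one group did not overlap with those of the other, with 4402 higher (33%) and 4623 lower (34.7%) on low-melanin necromass. Among the 8380 called genes, 8104 showed no overlap and 276 did. All 270 genes at least 8-fold higher and all 267 at least 8-fold lower had no overlap between groups. They were chosen by call and fold change in the same libraries, which makes overlap unlikely. A further 921 genes showed no overlap without passing the test.

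On the TMM scale, many genes had intervals inside 2-fold. Upper-quartile and library-size scaling move the median gene to -0.28 and -0.32, and the counts below were not made on those scales. For 6902 genes, 51.7% of those tested, the 95% interval of the fold change lay inside 2-fold in either direction. These include 4119 of the 4960 genes that were not called and 2783 that were called with a small change. For 841 genes that were not called the interval reached past 2-fold, so a change of that size is not excluded there. At the other end, the whole interval lay beyond 2-fold for 1034 higher and 1183 lower genes.

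Strongly raised genes took a large share of the RNA. The 270 genes at least 8-fold higher held 0.55%, 0.6% and 0.612% of all counts in glucose replicates 1, 2 and 3. In low-melanin replicates 1, 2 and 3 they held 14.6%, 15.1% and 13.9%. The groups lie far apart, and on high-melanin necromass the same genes held an intermediate 7.94% to 8.73%. The 40 genes at least 64-fold higher alone went from 0.03% ± 0.011 of counts on glucose to 6.28% ± 0.34 on low-melanin necromass (SD, n = 3), with 1.88% ± 0.28 on high-melanin necromass. These genes were chosen by the same contrast, so the shares describe its size and were not tested.

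The genes that fell most held a smaller share on glucose than the risers held on low-melanin necromass. Both sets were chosen by the contrast and cut at 8-fold on the TMM scale, and their shares were not tested. The 267 genes at least 8-fold lower held 5.25%, 4.49% and 5.37% of counts in glucose replicates 1, 2 and 3. In the low-melanin libraries they held 0.248% to 0.305%, and in the high-melanin libraries 1.57% to 1.69%. The 18 genes at least 64-fold lower went from 0.983% ± 0.13 to 0.0059% ± 0.00073 of counts (SD, n = 3), with 0.0634% ± 0.0098 on high-melanin necromass.

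**Figure D2:**
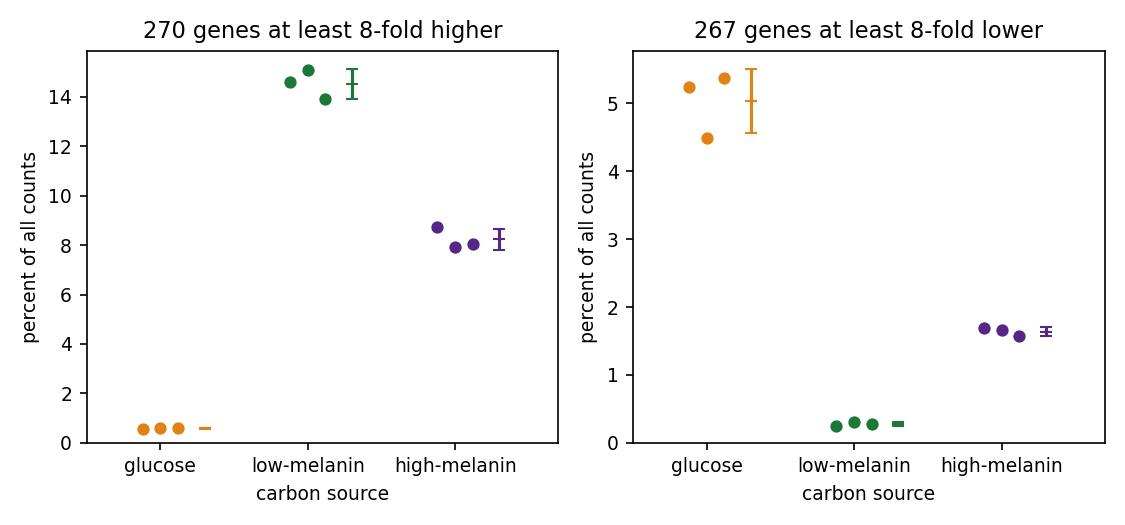
Percent of all counts (y axis) held by the 270 genes at least 8-fold higher (left) and the 267 at least 8-fold lower (right) on low-melanin necromass than on glucose, by carbon source. Points are libraries, and bars beside them give mean and SD (n = 3). Low-melanin libraries stand highest on the left (13.9% to 15.1%) and lowest on the right (0.248% to 0.305%), with high-melanin libraries between the other groups in both panels.

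Most of these genes had an intermediate mean level on high-melanin necromass. Of the 270 at least 8-fold higher, 199 had a mean CPM on high-melanin necromass between those of glucose and low-melanin necromass, 61 stood above both and 10 below both. In 94 of them the high-melanin level was within 2-fold of the low-melanin level, and in 37 it was within 2-fold of glucose. Of the 267 at least 8-fold lower, 199 were also intermediate, 35 stood above both and 33 below both. Here 70 were within 2-fold of the low-melanin level and 96 within 2-fold of glucose. The genes were chosen for an extreme low-melanin level and the comparisons share their glucose and low-melanin libraries, so these counts are a description with no test.

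Levels per unit length describe the same genes. Their choice by fold change largely fixes that the raised genes stood lower on glucose than on low-melanin necromass, so no test was made. TPM, the authors' level per unit length and library total, had a median of 5.21 on glucose over the 270 genes at least 8-fold higher, with quartiles of 2.39 and 11.3. On low-melanin necromass their median was 97.1 TPM, with quartiles of 42.1 and 277, and on high-melanin necromass it was 45 TPM. The 267 genes at least 8-fold lower went from a median of 27 TPM on glucose to 1.56 on low-melanin necromass, with 6.59 on the high-melanin type. Genes that share reads with similar transcripts made up 30 of the 270 and 35 of the 267, and their levels are uncertain. Over all tested genes they were 889 (6.66%), a smaller share than in either class.

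A small set of genes was both strongly raised and abundant. Of the 270, 33 reached a mean of at least 500 TPM on low-melanin necromass, among 268 tested genes at that level. Their mean levels on low-melanin necromass ran from 504 to 7030 TPM with a median of 1480, and their rises from 9.32-fold to 822-fold with a median of 60.9-fold. The mirror set held 23 genes, at least 8-fold lower and at 500 TPM or more on glucose. Their median there was 1010 TPM, and their falls ran from 8.08-fold to 311-fold with a median of 15.9-fold. The gene with the 311-fold fall stood at 7.81, 334 and 728 CPM in glucose replicates 1, 2 and 3. The gene with the 822-fold rise stood at 1.4, 12.8 and 5.1 CPM there, so both sizes depend on the glucose library. The raised set was made of longer models, with a median coding length of 1113 bases against 402 in the lowered set. All tested genes at 500 TPM or more had a median of 486 bases on either carbon source. Mean fragment length, which enters TPM, also differed between the groups and is given with the length quintiles. On high-melanin necromass 9 of the 33 kept a CPM of at least 50% of their low-melanin level, 16 stood between 10% and 50% of it and 8 under 10%.

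Among called genes without overlap in CPM between the groups, jgi.p|Traver1|13420 had the largest gain in TPM. It was already abundant on glucose. It stood at 1518, 1716 and 1580 CPM in glucose replicates 1, 2 and 3 and at 7970, 6567 and 7254 CPM in low-melanin replicates 1, 2 and 3. All low-melanin libraries lay above all glucose libraries. Its log2 fold change was 2.18 ± 0.13 (SE, adjusted p = 2.47e-08 in edgeR), a 4.53-fold rise. Per length, its mean went from 9190 to 32400 TPM. On high-melanin necromass it stood at 5945, 6754 and 6035 CPM, a range that overlaps with the low-melanin range. Its log2 fold change of high-melanin against low-melanin necromass was -0.22 (95% interval -0.49 to 0.06, adjusted p = 0.165), in a comparison where 54.1% of genes were called.

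The next largest gain in this set, that of jgi.p|Traver1|15481, started from a mean of 49.6 TPM on glucose and reached 7030 TPM. It stood at 7.19, 17.6 and 11.9 CPM in glucose replicates 1, 2 and 3, and at 2446, 2046 and 2095 CPM in the low-melanin libraries. The groups did not overlap, and its log2 fold change was 7.48 ± 0.34 (SE, adjusted p = 1.26e-08 in edgeR), a 179-fold rise. On high-melanin necromass it stood at 22.4, 22 and 15.1 CPM, close to glucose. Against glucose that level gave a log2 fold change of 0.70 (95% interval 0.09 to 1.3, adjusted p = 0.0501), which did not pass the test, where 54.5% of genes were called. Against low-melanin necromass the log2 fold change was -6.79, with an SE of 0.33 (adjusted p = 4e-08). Some of its reads also match similar transcripts and were split among them, which leaves its level uncertain. With fragment length as a covariate its log2 fold change against glucose was 6.68.

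Among called genes without overlap, jgi.p|Traver1|4080 had the largest loss in TPM. It stood at 2907, 4457 and 3886 CPM in glucose replicates 1, 2 and 3. In the low-melanin libraries it stood at 481, 569 and 342 CPM, below every glucose library. Its log2 fold change was -3.01 ± 0.20 (SE, adjusted p = 6.89e-08 in edgeR), and its mean level went from 15400 to 1510 TPM. On high-melanin necromass it was lower still, at 65.9, 69.3 and 63.6 CPM, and the log2 fold change of high-melanin against low-melanin necromass was -2.81 ± 0.20 (SE, adjusted p = 2.14e-07).

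The gene jgi.p|Traver1|3952 had the next largest loss in this set and the same order of carbon sources. It stood at 6136, 9175 and 9184 CPM in glucose replicates 1, 2 and 3, and at 1286, 1250 and 1122 CPM in the low-melanin libraries. The groups did not overlap, and its log2 fold change was -2.74 ± 0.17 (SE, adjusted p = 3.62e-08 in edgeR). On high-melanin necromass it stood at 272, 222 and 253 CPM, which against low-melanin necromass was a log2 fold change of -2.29, with an SE of 0.17 (adjusted p = 2.69e-07). These 4 models are short, from 297 to 564 bases, and the mean fragments of the libraries were 249 to 344 bases long. Their TPM values therefore lean on the effective length, which for the shortest ran from 75 to 108 bases between libraries.

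**Figure D3:**
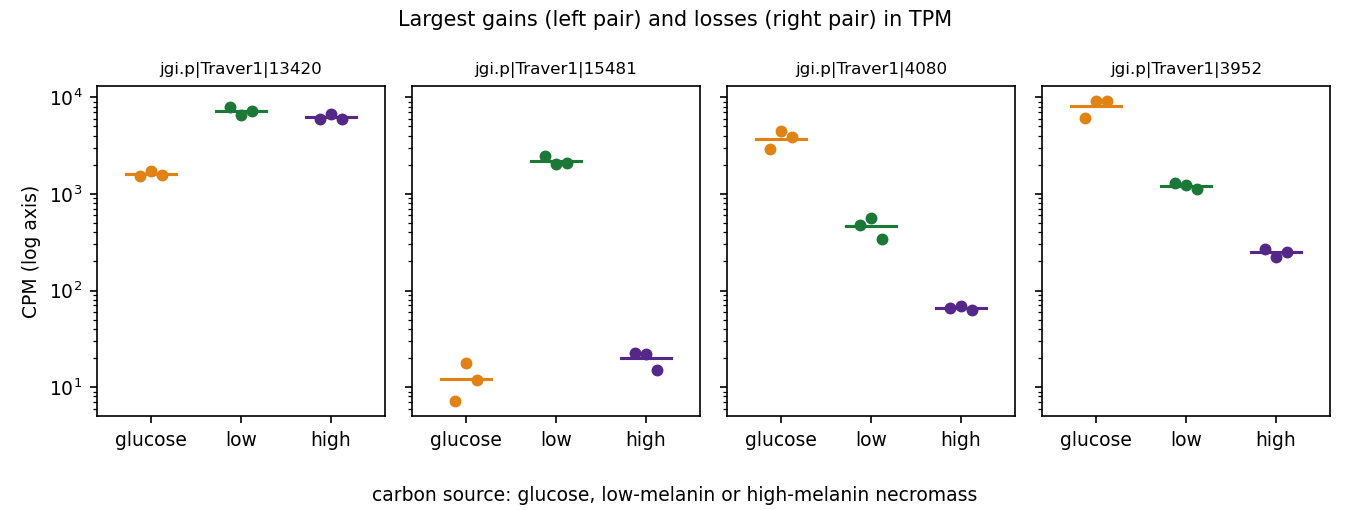
CPM (y axis, log scale) of the 2 genes with the largest gain and the 2 with the largest loss in TPM, by carbon source (glucose, low-melanin necromass, high-melanin necromass). Genes were ranked among those called and without overlap in CPM between glucose and low-melanin libraries. Points are libraries and lines group means (n = 3). High-melanin libraries lie near low-melanin libraries for the first gene, near glucose for the second, and below both for the third and the fourth.

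The ranking by change in TPM was drawn from called genes without overlap between the groups. The 10 genes that follow in each direction had changes of 3.93-fold to 822-fold among those higher and 1.25-fold to 139-fold among those lower. Among those higher, glucose means ran from 4.03 to 1570 TPM and low-melanin means from 3030 to 6590 TPM. Among those lower, glucose means ran from 4970 to 17600 TPM and low-melanin means from 40.2 to 8680 TPM. In each direction, 9 of the 10 also differed between the necromass types in edgeR's test, where 54.1% of all tested genes did.

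The most abundant transcripts were partly exchanged. The lists of 100 transcripts with the highest mean TPM on glucose and on low-melanin necromass had 56 in common. Lists of single libraries shared 79 to 88 transcripts within glucose and 91 to 92 within low-melanin necromass, and 52 to 57 between the groups. The exchange between carbon sources therefore exceeded that between libraries of a group. Among transcripts of at least 600 bases, a limit chosen after the data were seen, the group lists shared 52.

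Counts were concentrated in fewer transcripts on low-melanin necromass. The 100 transcripts with most counts in a library held 20% to 21.8% of counts in glucose libraries. In low-melanin libraries they held 23.4% to 24.8%, and the groups did not overlap (p = 0.1, exact two-sided permutation test). With 3 libraries against 3, 0.10 is the smallest p this test allows. The effective number of transcripts, which is the number of equally abundant transcripts of the same evenness, was 3740 ± 160 by counts on glucose and 3220 ± 91 on low-melanin necromass (SD, n = 3, exact permutation p = 0.1). By TPM, the measure planned for this test, the groups were not separated. The values were 1617, 1434 and 1475 in glucose replicates 1, 2 and 3 and 566, 1613 and 1444 in low-melanin replicates 1, 2 and 3 (exact permutation p = 0.6).

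Low-melanin replicate 1 decided the TPM value. In that library 2 models of 63 and 108 bases, far shorter than a fragment, took 25.9% of TPM and 1.11% of counts. In the other 5 libraries they took 2.41% to 7.64% of TPM and 0.167% to 0.267% of counts, so they stood apart by counts too. Without the 10 transcripts highest in TPM, the effective number was 2268 ± 25 on glucose and 2507 ± 39 on low-melanin necromass (SD, n = 3). By counts without the same 10 transcripts, an alternative chosen after the data were seen, it was 4014 ± 140 and 3361 ± 91. The order of the groups by TPM was then opposite to that by counts.

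Fewer genes were detected on low-melanin necromass. With every library thinned to 18676346 counts, 13278, 13154 and 13223 transcripts had at least 10 counts in glucose replicates 1, 2 and 3. In low-melanin replicates 1, 2 and 3 there were 12702, 12836 and 12829, below every glucose library (exact permutation p = 0.1, the smallest possible). Thinned to an equal TMM-scaled total, an alternative chosen after the data were seen, the means were 13081 ± 55 and 12770 ± 59 (SD, n = 3). Genes with counts on one carbon source alone were rare. Only 1 transcript had no counts in all 3 glucose libraries and at least 10 in each low-melanin library, and 1 showed the reverse.

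**Figure D4:**
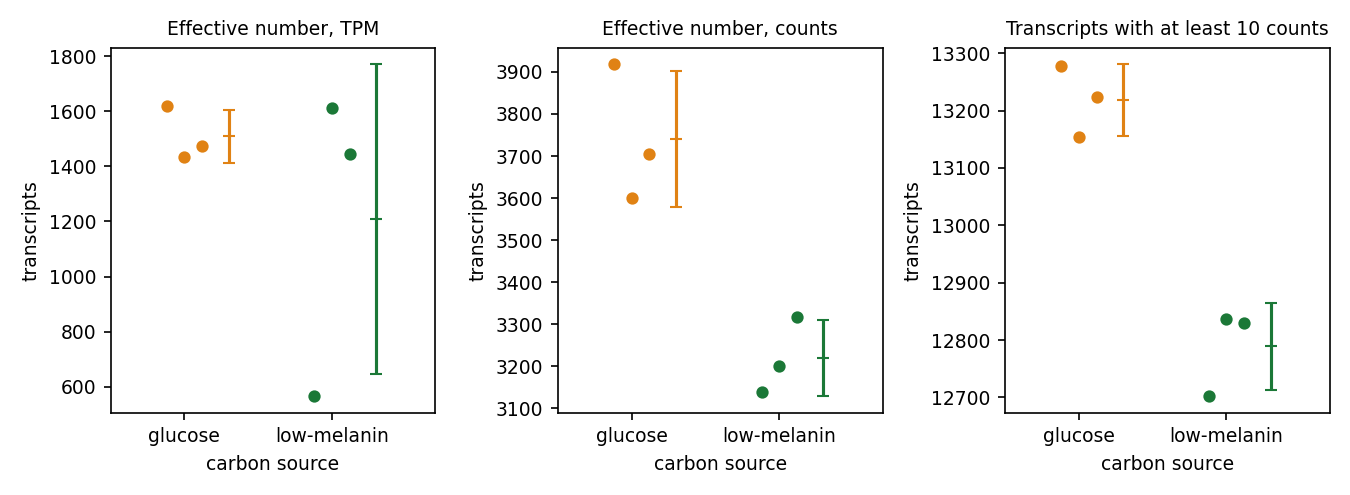
Effective number of transcripts by TPM (left) and by counts (middle), and transcripts with at least 10 counts in libraries thinned to an equal total (right), for glucose and low-melanin libraries. Points are libraries, bars give mean and SD (n = 3), and the y axes do not start at 0. Only low-melanin replicate 1 stands low by TPM (566), while by counts and by detection all low-melanin libraries lie below all glucose libraries.

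Direction went with abundance. In the quintile of genes with the lowest mean CPM over the 6 libraries (up to 3.71 CPM), 281 genes were higher and 964 lower, so 22.6% of the calls were higher. In the middle quintile 835 were higher and 852 lower. In the most abundant quintile (from 89.6 CPM) 1251 were higher and 704 lower, or 64%. The median log2 fold change rose from -0.46 in the lowest quintile to 0.24 in the highest. Of the strong rises, 147 of the 270 genes at least 8-fold higher lay in the most abundant quintile and 9 in the lowest, but the rise itself adds to the mean that sets the quintile. The 267 at least 8-fold lower stood at 45 to 62 in each quintile. With scaling by library size alone, which shifts all genes nearly alike, the share of higher calls also rose from quintile to quintile. The most abundant quintile then held 919 higher and 997 lower genes.

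Direction went with coding length to a lesser degree. In the shortest quintile (45 to 612 bases) 677 genes were higher and 890 lower, and in the longest (1923 to 15144 bases) 1044 were higher and 658 lower. With library size alone the longest quintile held 651 higher and 1009 lower genes. The median log2 fold change was -0.14 in the shortest and 0.14 in the longest quintile, a difference of 0.28. Library-size scaling shifts all genes nearly alike, so it could not change this difference. The mean fragment of a glucose library was 291 to 344 bases long and that of a low-melanin library 249 to 274 bases, without overlap. Fragment length and carbon source therefore cannot be told apart among these 6 libraries. With the effective length of each transcript in each library as an offset, the difference between the quintiles was 0.51.

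**Figure D5:**
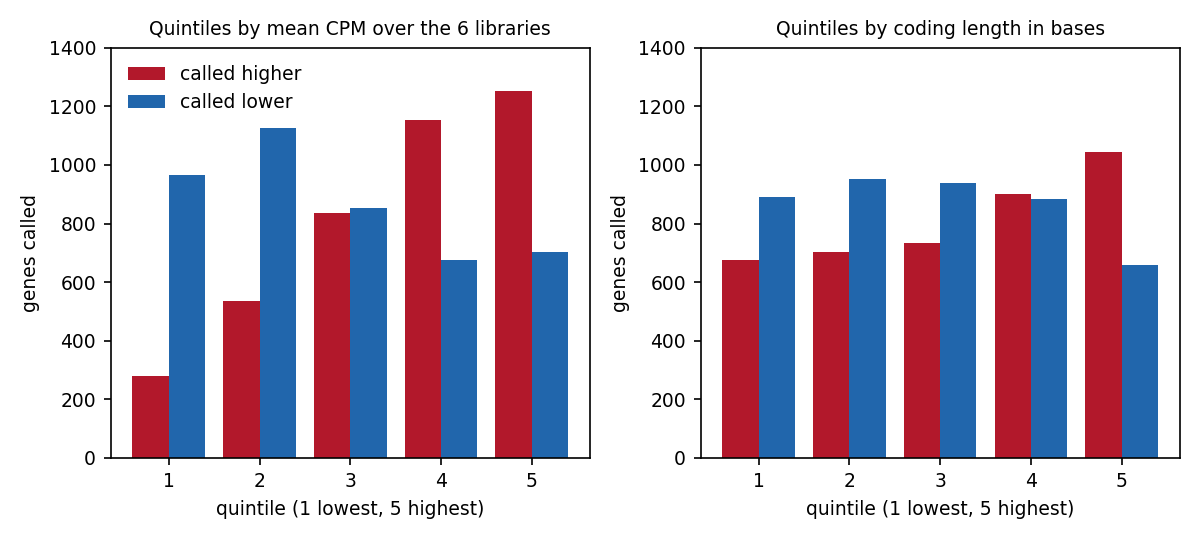
Genes called higher (red) and lower (blue) on low-melanin necromass than on glucose (y axis, number of genes) in quintiles of the tested genes by mean CPM over the 6 libraries (left) and by coding length (right). Higher calls go from 281 to 1251 from the least to the most abundant quintile, and from 677 to 1044 from the shortest to the longest.

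Glucose libraries varied more among themselves than low-melanin libraries. The biological coefficient of variation, the spread between libraries beyond counting error, was 0.208 on glucose and 0.0921 on low-melanin necromass. The fit gave each gene a single estimate of spread, shared by all carbon sources. The SD of log2 CPM was larger on glucose in 9285 genes, 69.6% of those tested. A range of more than 4-fold among the 3 libraries occurred in 106 genes on glucose and 32 on low-melanin necromass, and 60 of the 106 (56.6%) were called between the carbon sources, against 62.8% of all tested genes. Weights per library, chosen after the data were seen, gave 8914 calls in limma-voom in place of 8327 without them.

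In the strongly raised genes glucose replicate 1 was most often lowest and replicate 2 most often highest. In the strongly lowered genes this was turned. Of the 40 genes at least 64-fold higher, 38 had 3 distinct CPM values on glucose, and glucose replicate 1 was lowest in 30 of these and replicate 2 highest in 32. Over all tested genes replicate 1 was lowest in 5015 and replicate 2 highest in 4486 of 13337. Among 267 genes at least 8-fold higher with 3 distinct values, replicate 1 was lowest in 160. Replicate 2 was highest in 117 of them and replicate 3 in 100. Among the 267 at least 8-fold lower, replicate 1 was highest in 160 and replicate 2 lowest in 137. Over all tested genes these were 5371 and 4843. Low-melanin libraries were uneven in these classes too. Low-melanin replicate 1 was lowest in 137 of 258 genes at least 8-fold lower, against 4504 of 13329 over all tested genes. Low-melanin replicate 3 was lowest in 149 of 270 genes at least 8-fold higher, against 4182 of 13329. The 40 genes together held 0.0197% to 0.0423% of counts on glucose against 5.9% to 6.53% on low-melanin necromass, so the glucose level behind a very large fold change varied with the library.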

How the data were processed

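RNA sequencing tables of *T. versicolor* were used, 3 libraries a carbon source. TRIzol extraction, a PureLink column kit and the NEBNext Ultra II RNA library kit were used, per the labels' protocols. The tools named are kallisto 0.51.1 and DESeq2 1.48.2, per the submitters' processing notes. Transcript set and strand setting: not given in the sources used here. Each deposited table holds estimated counts, TPM, lengths and effective lengths per transcript, per the file headers. Of the lengths, 99.6% are multiples of 3, so they are taken here as coding lengths.

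Estimated counts were rounded, filtered with filterByExpr (at least 99.9854% of counts kept) and scaled with TMM. All 9 libraries were fitted in 1 model with carbon source as its term, with edgeR 4.0.16 (glmQLFit and glmQLFTest, robust) in R 4.3.3. DESeq2 1.42.0 and limma 3.58.1 served as alternatives. P-values were adjusted over all 13340 genes with a threshold of 0.05. A standard error is the size of the log2 fold change over the root of its F statistic. TPM was used to describe levels. Counts further than 0.01 from whole mark transcripts that share reads, and such transcripts held 2.55% to 3.5% of the counts of the 6 libraries.

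Genes named are the 2 each way with the largest change in mean TPM among called genes without overlap in CPM. The comparison, rules and gene sets were chosen with earlier results of these data known. No pair of libraries within a group agreed within sampling noise (lowest chi-square per degree of freedom 19.1).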

Additional observations from a re-analysis of the deposited data

How the results depend on the processing

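Counts of genes at least 8-fold higher ran from 213 to 278 and at least 8-fold lower from 226 to 335 over 12 alternatives, within 1.5 times of 270 and 267. Without 1 of the 9 libraries they ran from 266 to 279 and from 238 to 285, all higher genes from 3641 to 4192, all lower genes from 3827 to 4424, and those at least 2-fold from 1566 to 1702 higher and from 1987 to 2211 lower. Over the 12 alternatives, all higher genes ran from 1070 to 4359 and all lower genes from 1229 to 6074. Those at least 2-fold ran from 1070 to 1671 higher and from 1229 to 3040 lower. Library size alone gave 2699 higher and 6074 lower genes. The test beyond 2-fold, by its construction, gave 1070 higher and 1229 lower genes, both with and without the 2-fold limit. A covariate for fragment length left 2733 lower genes among 5517 called, and 60.6% of the calls remained. None of the alternatives called a gene of the 8380 in the opposite direction. The 4 named genes kept direction and call in every alternative that tested them. With the 6 libraries alone, their adjusted p in edgeR ran from 5.03e-07 to 1.16e-05. DESeq2 called 8372 genes, limma-voom 8327 and the 6 libraries alone 7874.

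The effective number of transcripts by TPM, low-melanin minus glucose, was -301, but 239 without the 10 transcripts highest in TPM. Leaving out each library gave values from -504 to 19.7, the highest without low-melanin replicate 1. The number of detected transcripts differed by -276 with a minimum of 5 counts by -582 with 20 and by -311 at an equal TMM-scaled total, in place of -429. These 3 alternatives and the weights per library were chosen after seeing the data. So were the counts without the same 10 transcripts and the top lists limited to at least 600 bases.

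No pairing by replicate number was seen across genes: deviations of same-numbered libraries correlated at -0.13, -0.15 and -0.02. None of the 6 libraries correlated best with its own number. A weak pairing, or one limited to few genes, would not show in these correlations. With the replicate block 3921 genes were higher and 4173 lower, and it changed no call of a named gene.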
